A study of Mus musculus with 4 samples.

Results

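The mitochondrial ribosomal protein genes are the nuclear genes that encode the proteins of the ribosome inside mitochondria. They were taken as every protein-coding mouse gene whose symbol begins with Mrpl or Mrps followed by a number, and 78 of 21887 protein-coding genes on the assembled chromosomes met that rule. Of these, 49 carried the letter l of the large subunit and 29 the letter s of the small subunit. Large and small follow that letter below, although mammalian structures place Mrps18a and Mrps30 in the large subunit and Mrps36 in neither. Open chromatin at these genes was read from ATAC-seq, in which the Tn5 transposase inserts sequencing adapters into accessible DNA, in haematopoietic stem cells (HSCs) sorted from marrow. The donors were male wild-type C57BL/6 mice 8 weeks old. The cells were LSK (negative for lineage markers, positive for Sca-1 and Kit), lacked CD34, CD48 and Flt3, and carried Slam1. A further sort by surface CD93 gave CD93-positive HSCs (2 libraries) and CD93-negative HSCs (2 libraries). Neither the number of cells sorted nor whether the libraries came from different mice is stated, so any spread between libraries may be technical.

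The mitochondrial ribosome translates the few messenger RNAs made from mitochondrial DNA, which encode membrane subunits of the respiratory chain and the ATP synthase. Its RNAs come from the mitochondrial genome, whereas all of its proteins are encoded in the nucleus, made in the cytosol and imported. Many of the proteins descend from bacterial ribosomal proteins and others were added in the mitochondrial lineage. HSCs are known to keep their mitochondria in a relatively inactive state while they are quiescent.

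Each library was deposited as a list of peak summits, the single bases at which a peak was highest, each with a score that was read as a −log10 p or q value. The CD93-positive lists held 21 and 711 summits (replicates 1 and 2) and the CD93-negative lists 7989 and 2755. Read depth is unknown, and in such lists a gene without a summit may be closed, covered by too few reads or represented by too few cells, which cannot be told apart. A gene was counted as listed when a summit lay within 1000 bp of either end of its annotated span, and the highest-scoring such summit was taken. Scores are set against the background of their own library and were not scaled between libraries. The identity of the cells was poorly covered by these lists, since 4 of 16 genes chosen as HSC markers (Tal1, Lyl1, Etv6 and Msi2) were listed in CD93-negative replicate 1 and none in the other 3 libraries. That was 25%, beside 32.2% of all protein-coding genes in CD93-negative replicate 1. Of 7 genes of sort molecules only Flt3, which the sorted cells lacked, was listed, in CD93-negative replicate 1 (score 10.8). Among genes of other cells, 0 of 9 endothelial and stromal genes were listed anywhere, and Cd68 was the single listed gene of 10 mature blood cell genes. In CD93-negative replicate 1, 4 of 9 myeloid granule genes were listed (S100a8, S100a9, Ngp and Camp, with S100a8 also in CD93-negative replicate 2). The interval of these 4 of 9, 13.7% to 78.8%, holds the 32.2% of all genes. The part of these cells in the results below was not tested.

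Few mitochondrial ribosomal protein genes were listed in CD93-positive HSCs and many in CD93-negative HSCs, in the order of the lengths of the lists. No member was listed in CD93-positive replicate 1, where 0.0183% of all protein-coding genes were, and 4 members were listed in CD93-positive replicate 2, or 5.13% (95% interval 1.41 to 12.6), where 3.22% of all genes were. In CD93-negative replicate 1, 52 members were listed, or 66.7% (55.1 to 76.9), beside 32.2% of all genes. In CD93-negative replicate 2 there were 16, or 20.5% (12.2 to 31.2), beside 12.9% of all genes. The groups did not overlap, and neither did the shares of all genes, at 0.0183% and 3.22% against 32.2% and 12.9%. Members averaged 2.56% ± 3.63 in CD93-positive and 43.6% ± 32.6 in CD93-negative HSCs (SD, n = 2 each), a difference of -41.0 percentage points. With 2 libraries against 2, an exact permutation test cannot give a p below 0.333, and none is given for this group of genes. The difference was -17.9 points without CD93-negative replicate 1 and -64.1 points without CD93-negative replicate 2. It moved with the number of summits per list, which differed between the groups in the same direction.

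When each longer list was reduced to its 711 highest-scoring summits, most of that difference was gone. CD93-positive replicate 2 listed 4 members, against 4 in CD93-negative replicate 1 and 7 in CD93-negative replicate 2. The shares were 5.13%, against 5.13% (1.41 to 12.6) and 8.97% (3.68 to 17.6). All genes then stood at 3.28% in CD93-negative replicate 1 and 3.38% in CD93-negative replicate 2, so that each of the 3 shares of members lay above its background and, in CD93-positive replicate 2 and CD93-negative replicate 1, the interval of the members held the background. With CD93-positive replicate 1 kept at its 21 summits, the group difference was then -4.49 points. Mrpl17, Mrps14 and Mrps18b were among the listed members of all 3 equally long lists. Mrpl32 was listed in CD93-positive replicate 2 and CD93-negative replicate 2, Mrpl48 in CD93-negative replicate 1, and Mrpl54, Mrps12 and Mrps28 in CD93-negative replicate 2. With 21 summits per list, CD93-positive replicate 2 listed no member, where 0% of all genes were listed. CD93-negative replicate 1 then listed none, with 0.0411% of all genes, and CD93-negative replicate 2 listed Mrps14, with 0.0228% of all genes.

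**Figure D1:**
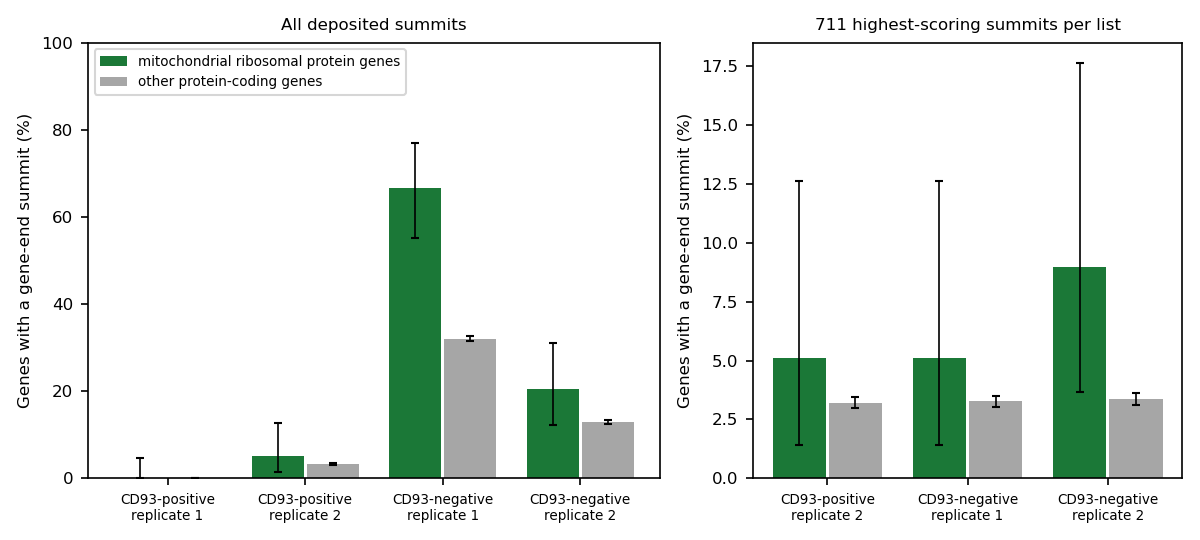
Share of genes with a summit within 1000 bp of a gene end (%, vertical axis) in each library, for the 78 mitochondrial ribosomal protein genes (green) and the 21809 other protein-coding genes (grey), with all deposited summits at left and with 711 summits per list at right, on different vertical scales. Error bars are exact 95% intervals for counting error over genes. In CD93-negative replicate 1 the members reach 66.7% with all summits and 5.13% with 711.

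The 4 members listed in CD93-positive HSCs were Mrpl17 and Mrpl32 of the large subunit and Mrps14 and Mrps18b of the small subunit. All 4 belong to the proteins with a bacterial homologue. All 4 were also listed in both CD93-negative libraries, so that no member was listed in CD93-positive HSCs alone. This was near the background, since 697 of the 700 other genes listed in CD93-positive replicate 2 were also listed in CD93-negative replicate 1. Mrpl17 (chromosome 7, 105803782 to 105811087) had a score of 18.7 in CD93-positive replicate 2, against 106.4 and 18.5 in CD93-negative replicates 1 and 2. It ranked 18 among the 704 genes listed in CD93-positive replicate 2, and 27 and 247 among the 7042 and 2829 genes listed in CD93-negative replicates 1 and 2. Mrps18b (chromosome 17, 35910380 to 35916440), a paralogue of Mrps18a and Mrps18c, scored 9.46 in CD93-positive replicate 2, against 109.5 and 20.6 in CD93-negative replicates 1 and 2. The score of 109.5 was the highest of any member in any list. Mrps14 (chromosome 1, 160195215 to 160201186) scored 9.05 in CD93-positive replicate 2, against 66.3 and 30.0 in CD93-negative replicates 1 and 2, and its rank of 5 in CD93-negative replicate 2 was the highest rank of a member there. Mrpl32 (chromosome 13, 14610301 to 14613037), whose protein is matured by the m-AAA protease of the inner membrane, scored 6.25 in CD93-positive replicate 2, against 52.1 and 19.3 in CD93-negative replicates 1 and 2. Across the 4, the median score in CD93-positive replicate 2 was 9.26, and that of the 700 other listed genes was 7.91. Their summits lay at nearly the same bases in both fractions. The distance from the CD93-positive summit ranged between 2 and 81 bp for the summits of CD93-negative replicate 1, and between 3 and 115 bp for those of replicate 2.

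Another member, Mrpl18, had a summit in the same 3 libraries but was missed by the rule on gene ends. The annotated span of Mrpl18 (chromosome 17, 12911345 to 12917787) runs past its RefSeq start at 12916091, and the summits lay at that inner start. They stood 222 bp upstream of it in CD93-positive replicate 2, against 147 and 224 bp in CD93-negative replicates 1 and 2, which was 1472 to 1549 bp from the nearest gene end. The scores were 5.64 in CD93-positive replicate 2, against 65.3 and 13.0 in CD93-negative replicates 1 and 2. These summits lay 16, 91 and 14 bp from the end of Tcp1, which encodes a subunit of the cytosolic chaperonin and lies on the other strand, so that the site cannot be assigned to either gene. Mrpl22 (score 6.27, 5 bp from its inner start) and Mrps23 (score 11.9, 55 bp from its inner start) were listed in the same way in CD93-negative replicate 1. Counting gene ends and annotated starts together gave 5 members in CD93-positive replicate 2, against 55 (70.5%) and 17 (21.8%) in CD93-negative replicates 1 and 2, with none in CD93-positive replicate 1. This wider count was not made over all genes, so these shares have no background beside them. Near the limit of 1000 bp, the members listed from farthest away in CD93-negative replicate 1 were Mrpl45 at 797 bp, Mrpl48 at 743 bp and Mrpl20 at 715 bp, and the closest of those not listed were Mrpl18 at 1549 bp and Mrpl22 at 1616 bp.

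The bases before the annotated starts of these 5 genes are given because the CD93-positive summits fell in or beside them, and because they can be compared for short motifs that are known from promoters of nuclear genes for mitochondrial proteins. They are RefSeq sequences of build GRCm38.p6, the assembly behind mm10, each 250 bases that end just before the start, in the direction of the gene. They lie at chr7:105811088-105811337 on the minus strand (Mrpl17), chr17:35916441-35916690 on the minus strand (Mrps18b), chr1:160194965-160195214 on the plus strand (Mrps14), chr13:14613038-14613287 on the minus strand (Mrpl32) and chr17:12916092-12916341 on the minus strand (Mrpl18). Mrps18b and Mrpl18 are shown beyond the rule for printed promoters, which asked for a gene-end summit inside the promoter window. Capitals mark the ETS motif CCGGAAG, the NRF1 core TGCGCA and the YY1 motif AAGATGG, on either strand.
Mrpl17: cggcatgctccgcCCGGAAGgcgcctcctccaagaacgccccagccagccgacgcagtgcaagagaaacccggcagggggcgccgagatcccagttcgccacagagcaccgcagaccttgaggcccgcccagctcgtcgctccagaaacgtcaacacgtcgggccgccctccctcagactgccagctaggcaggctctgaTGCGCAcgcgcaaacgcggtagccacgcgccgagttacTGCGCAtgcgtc
Mrps18b: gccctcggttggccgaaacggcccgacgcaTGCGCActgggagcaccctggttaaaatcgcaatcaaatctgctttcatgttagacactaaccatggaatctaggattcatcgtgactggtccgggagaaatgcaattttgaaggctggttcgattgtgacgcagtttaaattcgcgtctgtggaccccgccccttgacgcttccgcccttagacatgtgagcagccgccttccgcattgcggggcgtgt
Mrps14: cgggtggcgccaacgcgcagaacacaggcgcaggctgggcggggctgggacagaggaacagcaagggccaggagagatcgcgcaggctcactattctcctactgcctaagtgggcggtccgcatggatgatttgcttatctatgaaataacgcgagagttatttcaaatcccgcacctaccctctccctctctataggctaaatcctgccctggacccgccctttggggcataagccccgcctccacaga
Mrpl32: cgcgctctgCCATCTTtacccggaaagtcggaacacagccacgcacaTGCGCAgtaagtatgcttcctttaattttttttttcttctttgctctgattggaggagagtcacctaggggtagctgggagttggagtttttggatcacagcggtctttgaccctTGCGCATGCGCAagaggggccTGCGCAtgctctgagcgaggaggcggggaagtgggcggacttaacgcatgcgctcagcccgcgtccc
Mrpl18: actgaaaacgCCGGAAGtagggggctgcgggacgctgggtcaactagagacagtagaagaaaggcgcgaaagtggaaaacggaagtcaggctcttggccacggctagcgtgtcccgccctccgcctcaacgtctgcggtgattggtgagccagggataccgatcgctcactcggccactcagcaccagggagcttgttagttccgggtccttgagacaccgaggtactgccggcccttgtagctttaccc

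The 5 promoters did not share one arrangement of these motifs. Mrpl32 held 4 copies of the NRF1 core, beginning 203, 88, 82 and 67 bp before the start, and the inner pair formed one unbroken repeat. Its YY1 match, on the opposite strand, began 241 bp before the start. The CD93-positive summit of Mrpl32 lay 137 bp before the start, and the CD93-negative summits 56 and 59 bp before it, on the downstream side of the cluster. Mrpl17 held 2 NRF1 cores, beginning 50 and 12 bp before the start, and an ETS motif beginning 237 bp before it, with summits 64 bp before the start in CD93-positive replicate 2, against 74 and 61 bp in CD93-negative replicates 1 and 2. In these bases Mrps18b held 1 NRF1 core, beginning 220 bp before the start. Its promoter window of 250 bp before to 50 bp after the start also held an ETS motif, outside the bases printed. The summits of Mrps18b were farther upstream, 389 bp in CD93-positive replicate 2, against 387 and 274 bp in CD93-negative replicates 1 and 2. Mrpl18 held 1 ETS motif beginning 240 bp before the start, 18 bp upstream of its CD93-positive summit. Mrps14 held none of the 3 motifs in these bases, and its summits lay 64 bp before the start in CD93-positive replicate 2, against 70 and 105 bp in CD93-negative replicates 1 and 2. A match here is a run of letters, and no factor was measured.

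Another 12 members were listed in both CD93-negative libraries and in neither CD93-positive one. Ranked by the lower of their scores, they were led by Mrps28 (49.2 in CD93-negative replicate 1 and 23.0 in replicate 2), Mrps12 (23.3 and 19.4) and Mrpl54 (26.01 and 19.3). Mrps12 corresponds to bacterial S12, a protein of the decoding centre. Next came Mrpl34 (27.3 and 11.5), Mrpl49 (53.9 and 10.3), Mrpl51 (29.4 and 9.81), Mrpl41 (46.0 and 9.54) and Mrpl48 (58.8 and 9.26). Mrps30 (15.3 and 7.38) and Mrpl58 (13.6 and 6.08), a peptidyl-tRNA hydrolase that frees stalled mitochondrial ribosomes, followed with lower scores. Mrpl40 (20.6 and 4.86) and Mrpl13 (8.52 and 4.58) were near the floor of the second list. Every one of the 16 members listed in CD93-negative replicate 2 was also listed in replicate 1, with summits 3 to 195 bp apart. Other genes were near this, with 2771 of the 2813 listed in CD93-negative replicate 2 also listed in replicate 1.

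A further 36 members were listed in CD93-negative replicate 1 alone, 22 of the large and 14 of the small subunit. The highest scores among them were those of Mrps16 (47.9), Mrpl45 (47.2), which fixes the ribosome to the inner membrane, Mrpl47 (38.5), Mrps27 (36.6), a pentatricopeptide repeat protein, and Mrpl50 (30.5). Mrps9 (29.2), Mrpl44 (27.96), which has a fold of the RNase III family, and Mrps33 (26.6) came next. Between scores of 14 and 24 lay Mrpl20, Mrpl14, Mrpl9, Mrpl39, Mrps7, Mrpl38, Mrpl36, Mrps24, Mrpl57, Mrps26, Mrpl15, Mrpl37 and Mrpl10, a protein at the base of the ribosomal stalk. Mrps6, Mrpl2, Mrps18c, Mrpl27, Mrps36, Mrpl55, Mrps5, Mrps15, Mrpl30 and Mrpl43 had lower scores, between 13.9 and 8.55. Mrps36 is also known as a subunit of the 2-oxoglutarate dehydrogenase complex. Mrpl11 scored 5.90, and Mrps35, Mrpl21, Mrpl46 and Mrps11 each scored 4.54. Mrpl46 and Mrps11 lie 42 bp apart and rest on the same summit, so the 52 listed members stand on 51 summits.

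**Figure D2:**
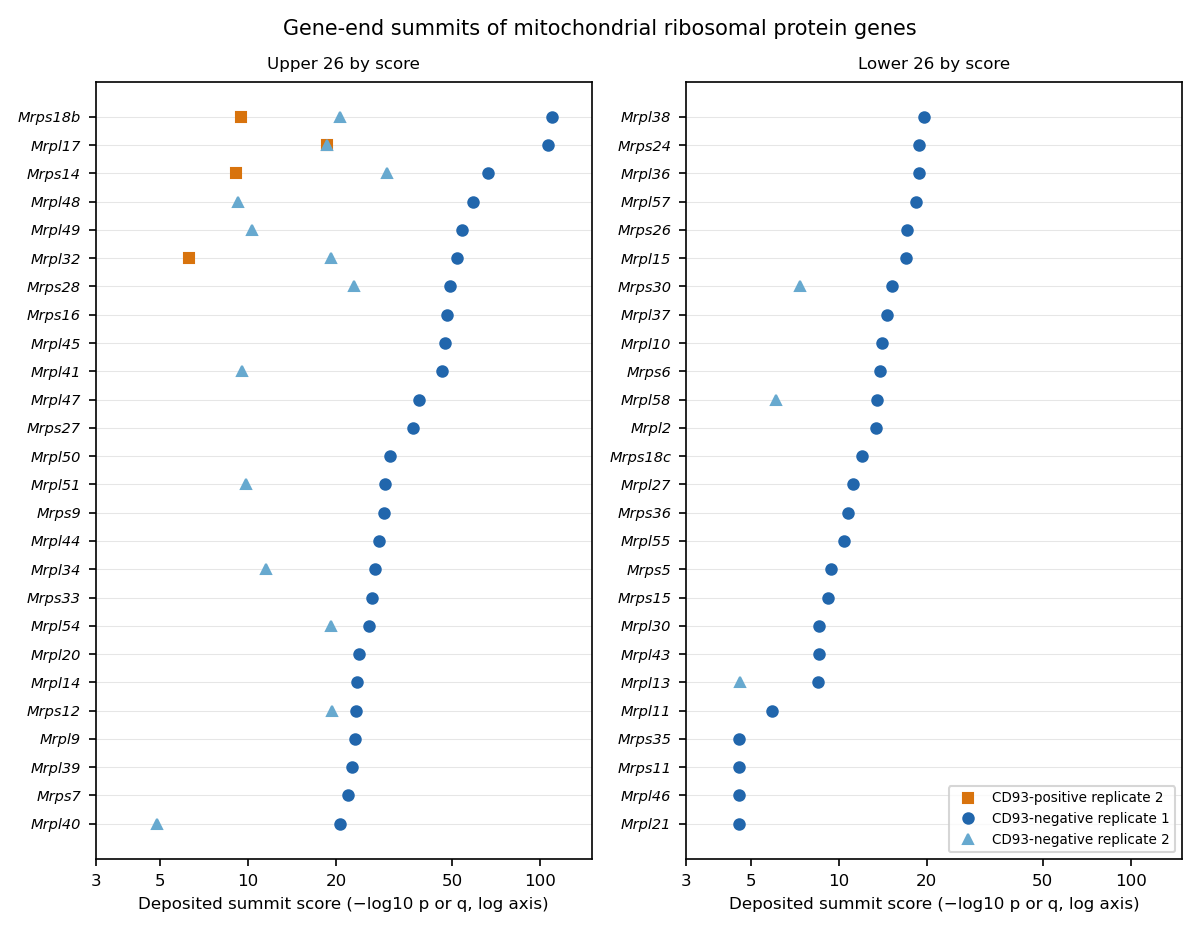
Deposited score of the highest-scoring gene-end summit (horizontal log axis, −log10 p or q) for the 52 members listed in any library, 26 in each panel, ordered from the top by score in CD93-negative replicate 1 (circles). Squares show CD93-positive replicate 2 and triangles CD93-negative replicate 2, and all 4 squares are in the left panel, which holds the 26 higher scores, beside circles of 52.1 to 109.5.

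Detection in the shorter lists followed the score in the longest one. The 52 members listed in CD93-negative replicate 1 were divided by score there into 4 groups of 13. CD93-positive replicate 2 listed 4 members of the highest group (scores of 30.5 to 109.5) and 0 of each of the other 3 groups, while CD93-negative replicate 2 listed 8, 5, 2 and 1 from the highest group to the lowest. All listed genes, divided in the same manner, gave 30.8%, 6.81%, 1.65% and 0.511% in CD93-positive replicate 2, against 74.3%, 45.3%, 26.9% and 11.8% in CD93-negative replicate 2. In members and in all genes alike, the share fell with the score group in both shorter lists. Of the members listed in CD93-negative replicate 1, CD93-positive replicate 2 listed 7.69% (2.14 to 18.5) and CD93-negative replicate 2 listed 30.8% (18.7 to 45.1), beside 9.97% and 39.6% of the other genes listed there. The median score in CD93-negative replicate 1 was 20.1 for the 52 members and 24.0 for the 6990 other listed genes. When all listed genes were divided by score into 4 equal groups, 18, 14, 10 and 10 members lay in the lowest to the highest group. In CD93-negative replicate 2 the median was 10.9 for the 16 members and 10.1 for the 2813 other listed genes, and the same division put 4, 3, 2 and 7 members in the lowest to the highest group. With CD93-negative replicate 1 reduced to its 2755 highest-scoring summits, 15 members were listed, or 19.2% (11.2 to 29.7), beside 12.9% of all genes.

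No gene-end summit was listed in any library for 26 members, 16 of the large and 10 of the small subunit. In CD93-negative replicate 1, the longest list, 33.3% of members had none, beside 67.9% of other protein-coding genes. Of the 26 members, those of the large subunit were Mrpl1, Mrpl3, Mrpl4, Mrpl12, Mrpl16, Mrpl18, Mrpl19, Mrpl22, Mrpl23, Mrpl24, Mrpl28, Mrpl33, Mrpl35, Mrpl42, Mrpl52 and Mrpl53. They include Mrpl12, which corresponds to the L7/L12 stalk protein that recruits translation factors, and Mrpl3 and Mrpl4, which belong to the conserved core. Those with the letter of the small subunit were Mrps2, Mrps10, Mrps17, Mrps18a, Mrps21, Mrps22, Mrps23, Mrps25, Mrps31 and Mrps34. The nearest summit of CD93-negative replicate 1 lay 1549 to 137308 bp from a gene end, with a median of 18817 bp. A summit inside the gene was listed in 3 of them, Mrpl18, Mrpl22 and Mrps23, all at the inner starts described above. That left 23 members with no summit at an end or annotated start in any list.

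Large and small subunit genes were not told apart by their shares. In CD93-positive replicate 2 the counts were 2 of 49 large subunit genes and 2 of 29 small subunit genes, or 4.08% and 6.90%. In CD93-negative replicate 1 they were 33 of 49 and 19 of 29, or 67.3% (52.5 to 80.1) and 65.5% (45.7 to 82.1), a difference of 1.83 points (95% interval -18.3 to 23.3). In CD93-negative replicate 2 they were 11 of 49 and 5 of 29, or 22.4% and 17.2%, a difference of 5.21 points (-14.5 to 21.7). These intervals include differences of over 10 points either way and do not show that the subunits are alike. The sign of the difference in CD93-negative replicate 1 turned with a window of 500 bp, where it was -6.33 points. With 711 summits per list it turned in both CD93-negative libraries, to -2.81 points in replicate 1 and -7.67 points in replicate 2.

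The genes were also divided by whether the protein has a bacterial homologue, a division added after the values were seen. Numbers up to 36 in the large and up to 21 in the small subunit were read as bacterial homologues, following the usual naming of mammalian proteins. In CD93-positive replicate 2, 4 of 44 genes of bacterial origin and 0 of 34 mitochondria-specific genes were listed. With full lists the shares ran the other way in CD93-negative HSCs, with 26 of 44 (59.1%, 43.2 to 73.7) and 26 of 34 (76.5%, 58.8 to 89.3) in replicate 1, and 7 of 44 (15.9%) and 9 of 34 (26.5%) in replicate 2. With 711 summits per list the direction in CD93-negative HSCs turned to that of CD93-positive replicate 2, with 3 of 44 (6.82%) and 1 of 34 (2.94%) in replicate 1, and 5 of 44 (11.4%) and 2 of 34 (5.88%) in replicate 2. The subunits went opposite ways in the full list of CD93-negative replicate 1, with 15 of 28 genes of bacterial origin and 18 of 21 mitochondria-specific genes in the large subunit, and 11 of 16 and 8 of 13 in the small subunit. The intervals of the pairs overlapped in each library, and no test was made.

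**Figure D3:**
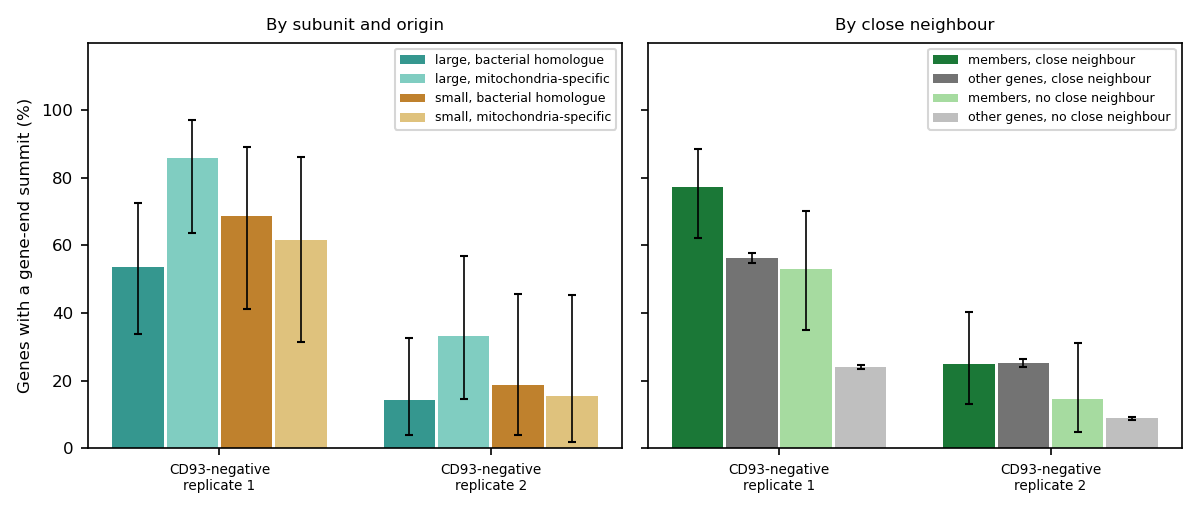
Share of genes with a gene-end summit (%, vertical axis) in the CD93-negative libraries, by subunit and bacterial or mitochondrial origin at left, and by the presence of a close neighbour for members (green) and other protein-coding genes (grey) at right. Error bars are exact 95% intervals over genes. Members with a close neighbour stand at 77.3% in CD93-negative replicate 1 and members without one at 52.9%.

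Mitochondrial ribosomal protein genes often lie beside another gene. A close neighbour, meaning another protein-coding gene with an end within 1000 bp of an end of the member, was present for 44 of 78 members (56.4%), against 24.7% of the 21809 other protein-coding genes. It was present for 30 of 49 large subunit genes and 14 of 29 small subunit genes. In CD93-negative replicate 1, 34 of 44 members with a close neighbour were listed (77.3%, 62.2 to 88.5), against 18 of 34 without one (52.9%, 35.1 to 70.2). Other genes stood at 56.3% with and 24.1% without a close neighbour, so within each class the members lay higher. In CD93-negative replicate 2 the members stood at 25.0% with a close neighbour and 14.7% without, and the other genes at 25.3% and 8.83%. Here members with a close neighbour were listed no more often than other genes with one. In CD93-positive replicate 2 the members were listed at 2 of 44 (4.55%) with a close neighbour and 2 of 34 (5.88%) without, beside 5.56% and 2.44% of other genes. With 711 summits, CD93-negative replicate 1 gave the same counts of members, beside 5.85% and 2.42% of other genes. The members' difference by neighbour was then -1.34 points (95% interval -15.0 to 10.1). So few listed members cannot show whether the difference seen in the full list was absent.

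Many of these summits also lay at the end of a neighbouring gene. The listed summit also lay within 1000 bp of an end of another protein-coding gene for 2 of 4 members in CD93-positive replicate 2, against 32 of 52 (61.5%) in CD93-negative replicate 1 and 11 of 16 (68.8%) in CD93-negative replicate 2. For other listed genes this share was 33.1% in CD93-positive replicate 2, against 32.0% and 38.3% in CD93-negative replicates 1 and 2. In CD93-negative replicate 1 the strands of both genes were annotated for 28 of the 32. In 26 of these the end near the summit was the nearest neighbour's start, on the opposite strand, and whether the genes diverge or overlap was not counted. The summit was nearer to the neighbour than to the member in 2 of 2 such members in CD93-positive replicate 2, against 15 of 32 in CD93-negative replicate 1 and 4 of 11 in CD93-negative replicate 2. In CD93-positive replicate 2 the pairs were Mrpl32, 137 bp from the summit, with the proteasome gene Psma2, 68 bp from it, and Mrps18b, 389 bp from the summit, with Ppp1r10, a regulatory subunit of protein phosphatase 1, 317 bp from it. The summits of Mrpl17 and Mrps14 lay at no other gene end.

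Several neighbours also encode mitochondrial proteins. Mrps12 shares its site with Sars2, the mitochondrial seryl-tRNA synthetase, 29 bp from the summit of CD93-negative replicate 1. Mrpl47 faces Ndufb5 (160 bp) and Mrpl36 faces Ndufs6 (20 bp), both subunits of respiratory complex I. The summit of Mrpl43 lay 741 bp from Twnk, the helicase of mitochondrial DNA, and that of Mrps27 lay 35 bp from Ptcd2, a mitochondrial pentatricopeptide repeat protein. Other partners have roles outside mitochondria, among them Fau at Mrpl49 (118 bp), which encodes a ubiquitin-like protein fused to a cytosolic ribosomal protein, Hira at Mrpl40 (182 bp), a histone chaperone, and Ncapd2 at Mrpl51 (348 bp), a condensin subunit. At Mrpl48 the summit lay 743 bp from the outermost start of Mrpl48 and 17 bp from the small GTPase gene Rab6a.

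Where the start was annotated, the summits marked starts and not 3′ ends. RefSeq promoters gave a start for 69 of 78 members. Of the 46 such members listed in CD93-negative replicate 1, 45 had their summit within 1000 bp of the outermost annotated start, and 34 (73.9%) in the window of 250 bp before to 50 bp after it, against 93.8% and 69.9% of the 5762 other genes measured alike. The exception was Mrpl36, whose annotated start lies inside its span. Its summit lay 41 bp before the 5′ end of that span, which faces Ndufs6, and 2547 bp upstream of the annotated start. The median position was 47 bp upstream of the start for members and 39 bp upstream for other genes. In CD93-positive replicate 2, 3 of 4 members had the summit in that window. In CD93-negative replicate 2 it was 8 of 13, with a median position 88 bp upstream.

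**Figure D4:**
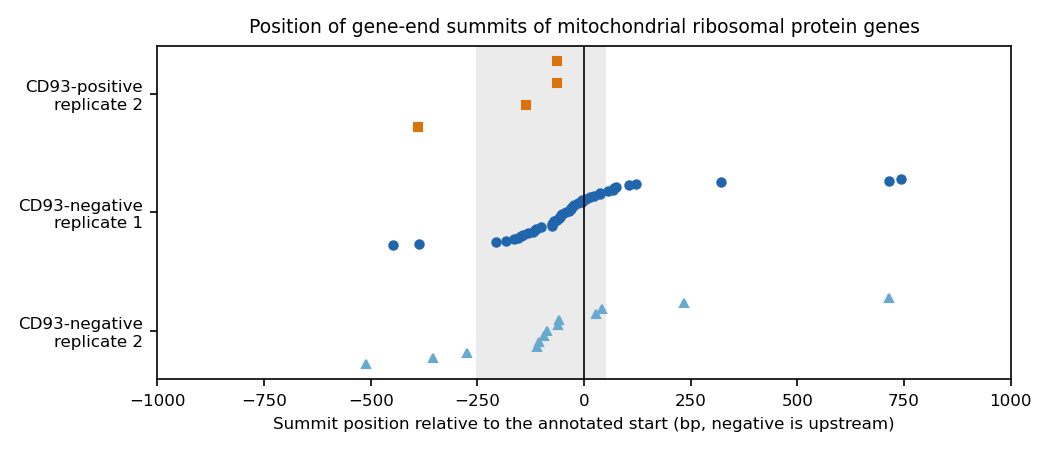
Position of each member's gene-end summit relative to the outermost annotated start (horizontal axis, bp, negative is upstream) in 3 libraries, with the shaded band marking 250 bp before to 50 bp after the start. Points of a library are spread vertically only to separate them. Of the 46 positions in CD93-negative replicate 1, 34 fall in the band, and 1 beyond the axis (Mrpl36) is not drawn.

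The promoters of these genes held 3 short motifs more often than those of all other genes, and the members' intervals lay above the other genes' shares. In the 300 bases from 250 before to 50 after the outermost start, CCGGAAG (ETS factors such as GABPA) was present on either strand in 24 of 69 members (34.8%, 23.7 to 47.2), against 11.8% of 17423 other protein-coding genes. TGCGCA (the core of the NRF1 motif, the same on both strands) was present in 21 members (30.4%, 19.9 to 42.7), against 10.0%, and AAGATGG (YY1) in 13 members (18.8%, 10.4 to 30.1), against 6.30%. GABPA, NRF1 and YY1 are known regulators of nuclear genes for mitochondrial proteins. On like groups, members listed in CD93-negative replicate 1 held ETS, NRF1 and YY1 motifs at 30.4% (17.7 to 45.8), 34.8% (21.4 to 50.2) and 19.6% (9.36 to 33.9), beside 22.8%, 18.2% and 8.50% of other genes listed there, and for ETS the members' interval includes the share of the other genes. GGGCGG (SP and KLF factors) was present in 49.3% of members, against 46.3% of other genes and 72.1% of the listed other genes. CCAAT (NF-Y) was present in 39.1% and 39.2%, TATAAA (bound by the general factor TBP) in 5.80% and 13.4%, and CACGTG (E-box) in 7.25% and 7.91%, of members and other genes. The listed other genes held CCAAT at 42.5%, TATAAA at 5.74% and CACGTG at 11.6%. None of the motifs searched contains another of them. The median ratio of observed to expected CpG was 0.818 in members and 0.574 in other genes, and 0.829 in the listed other genes.

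**Figure D5:**
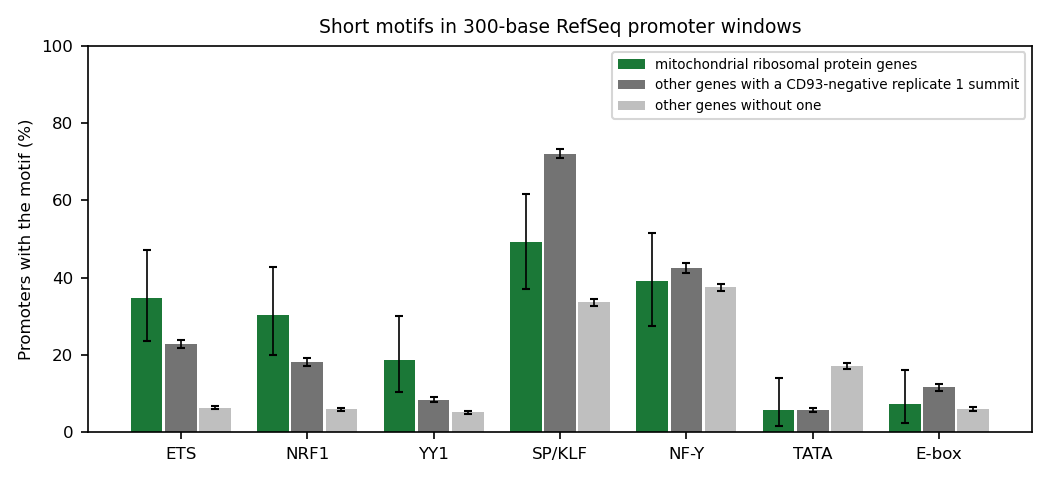
Share of promoter windows of 300 bases (%, vertical axis) that hold each motif on either strand, for the 69 members with an annotated start (green), the 5762 other genes listed in CD93-negative replicate 1 (dark grey) and the 11661 other genes not listed there (light grey). Error bars are exact 95% intervals over genes. The members stand above both grey groups for ETS, NRF1 and YY1, at 34.8%, 30.4% and 18.8%.

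Listed members had promoters richer in GC than unlisted members, as was the case among other genes. Members listed in CD93-negative replicate 1 had a median GC content of 61.0% and unlisted members 55.3%, beside 62.3% and 52.0% for other genes. GGGCGG was present in 28 of 46 listed (60.9%) and 6 of 23 unlisted members (26.1%), beside 72.1% and 33.6% of other genes. The ETS motif was present in 14 of 46 listed members (30.4%) and 10 of 23 unlisted ones (43.5%), the NRF1 core in 16 of 46 and 5 of 23, and the YY1 motif in 9 of 46 and 4 of 23. Among other genes, listed and unlisted, the shares were 22.8% and 6.40% for ETS, 18.2% and 5.98% for NRF1, and 8.50% and 5.21% for YY1. For ETS the members ran the other way, with intervals that overlap (17.7 to 45.8 and 23.2 to 65.5). The CpG ratio was 0.810 in listed and 0.820 in unlisted members. Among other genes the ratio was 0.829 for listed and 0.334 for unlisted ones. The ratio of unlisted members lay near that of listed other genes.

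The other genes of mitochondrial translation were listed at shares below those of the ribosomal proteins in 3 libraries, and the difference was not tested. Of 37 such genes, CD93-positive replicate 2 listed 1 (2.70%), against 20 (54.1%) for CD93-negative replicate 1 and 5 (13.5%) for CD93-negative replicate 2, with none in CD93-positive replicate 1. The gene listed in CD93-positive replicate 2 was Noa1, a GTPase of mitoribosome assembly, with a score of 8.78, against 43.1 and 13.2 in CD93-negative replicates 1 and 2. Among 5 ribosomal proteins whose symbols carry no Mrp number, Ptcd3, Chchd1 and Aurkaip1 were listed in CD93-negative replicate 1 and Aurkaip1 also in replicate 2, whereas Dap3 and Gadd45gip1 were listed nowhere. Of 13 translation factors, 6 were listed in CD93-negative replicate 1, led by the release factor Mtrf1l (61.4, and 29.5 in replicate 2). The initiation factors Mtif2 and Mtif3, the elongation factors Tufm, Tsfm and Gfm1, the recycling factor Mrrf and the release factor Mtrf1 were listed in no library. Of 19 genes of assembly and ribosomal RNA modification, 11 were listed in CD93-negative replicate 1, among them Tfb1m, a ribosomal RNA methyltransferase (53.2, and 9.57 in replicate 2), and Mterf4, Eral1, Mtg1, Gtpbp10, Fastkd2, Mrm2, Mrm3 and Ngrn were in no list.

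The cytosolic ribosomal protein genes were listed more often with full lists. Of 76 such genes, 6 (7.89%) were listed in CD93-positive replicate 2. CD93-negative replicate 1 listed 68 of them (89.5%, 80.3 to 95.3) and CD93-negative replicate 2 listed 28 (36.8%, 26.1 to 48.7). With 711 summits the order was reversed in both CD93-negative libraries, on few genes. There 4 of 78 mitochondrial and 2 of 76 cytosolic ribosomal protein genes were listed in replicate 1, beside 3.28% of all genes. In replicate 2 it was 7 of 78 and 5 of 76, beside 3.38%. With 2755 summits, CD93-negative replicate 1 kept the order of its full list, at 28 of 76 cytosolic (36.8%) and 15 of 78 mitochondrial genes (19.2%). CD93-positive replicate 2, with 711 summits of its own, had 6 of 76 and 4 of 78. No test was made of these differences.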

How the data were processed

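ATAC-seq was measured in 2 CD93-positive and 2 CD93-negative HSC libraries, grouped by sample title, and tagmented DNA was amplified with 16 PCR cycles, per the labels. Per the submitters' processing notes, Bowtie2 and MACS2 were used with build mm10. Versions, thresholds, read filters and any Tn5 shift were not given in any source used here. Each library has its own list of 1-base summits, deposited with a score that was read from the values as the −log10 p or q that MACS2 reports. The replicate numbers inside the summit names (2 and 3 for CD93-positive, 1 and 3 for CD93-negative lists) differ from the titles, which were followed.

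Gene spans were those of RefSeq's GRCm38.p6 gene table and starts, strands and promoter sequences from the RefSeq promoter table, which held 69 of the 78 members. Summits were assigned to genes with Python 3.11.15, numpy 2.4.6, pandas 2.3.3 and scipy 1.17.1, a step checked on simulated summits, and plots were drawn with matplotlib 3.10.9. Shares have exact Clopper-Pearson 95% intervals and differences of shares have Newcombe 95% intervals, which treat genes as independent and cover counting error only. Members and gene lists were chosen with earlier results of these data known, so no test over the members was run. Members were named by rule: all listed in a CD93-positive library, the leading ones listed in both CD93-negative libraries only, the 5 highest-scoring in each library, and all listed nowhere. Alternatives were windows of 500 and 2500 bp, annotated starts only, a score of at least 5, lists of equal length, other sharing distances, another gene background, a replicate block, another assignment of Mrps18a, Mrps30 and Mrps36, and leaving out each library.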

Additional observations from a re-analysis of the deposited data

How the results depend on the processing

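Of 89 alternative values of 18 results, 80 stayed within the interval or spread of the value reported and 9 moved beyond it, most of them with lists of equal length. Some of the 80 could not move, since equal lengths left both CD93-positive lists unchanged and CD93-positive replicate 1 listed no member under any setting. The group difference was judged against a wide spread, -73.7 to -8.39 points. With 711 summits per list, the share of members was 5.13% in CD93-negative replicate 1 and 8.97% in CD93-negative replicate 2, the CD93-positive minus CD93-negative difference became -4.49 points, the difference from other genes in CD93-negative replicate 1 became 1.86 points against 34.6 points with all summits, and the difference by close neighbour there became -1.34 points against 24.3 points. By construction a share can only stay or fall when fewer summits are used, and why the differences changed was not tested. Other genes in CD93-negative replicate 1 then stood at 5.85% with and 2.42% without a close neighbour. When genes listed in no library were left out of the background, the difference from other genes was -0.0569 and -2.26 points in CD93-positive replicates 1 and 2, and 0.640 and -9.22 points in CD93-negative replicates 1 and 2. Nearly every such gene is listed in CD93-negative replicate 1 by construction. Leaving out each library gave group differences between -64.1 and -17.9 points. The titles give both groups replicate numbers 1 and 2, which nothing ties to shared mice or days. With those numbers as a replicate block the differences were -66.7 and -15.4 points, with the same mean of -41.0 points (SD 36.3). The alternative subunit assignment counted Mrps18a and Mrps30 as large, left out Mrps36 and was chosen after seeing the data. It gave large minus small differences of 1.28 and 8.14 points in CD93-negative replicates 1 and 2. Unknown read depth limits every statement about genes without a summit.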
